A study of Mus musculus with 22 samples.

Results

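Ribosome-bound RNA of astrocytes was compared between injured spinal cord in which astrocytes carried a STAT3 deletion (STAT3-CKO SCI, animals 186, 531 and 270, n = 3) and uninjured spinal cord of mice with intact STAT3 (WT uninjured, animals 42, 79, 65 and 154, n = 4). These 7 libraries, out of 22 in the series, were taken by their labels for RNA type, genotype and condition. The question is which part of the response to injury remains in astrocytes that lack STAT3. Every animal was a young adult female carrying a mouse Gfap promoter Cre (mGFAP-Cre) and the RiboTag allele, and the STAT3-CKO animals also carried loxP-flanked STAT3 (STAT3-LoxP). Injury was a severe crush of the cord at thoracic level 10, and the central 3 mm of the lesion was taken 14 days later. WT uninjured animals had intact STAT3 and no crush, so genotype and injury differ together between the 2 groups and cannot be told apart. STAT3-CKO animals without injury were not analysed here. Injured animals with intact STAT3 (WT SCI, animals 9935, 9874, 9843 and 9596, n = 4) shared the statistical fit. Their values stand beside those of the comparison for some of the genes in which they differ. Where no WT SCI value is given, a difference may still exist.

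RiboTag puts a hemagglutinin (HA) tag on a ribosomal protein wherever Cre has been active, and an HA immunoprecipitate (HA IP) therefore holds RNA that was on the ribosomes of those cells. The RNA that does not bind, called flow-through, holds RNA of the rest of the tissue together with astrocyte RNA that was not bound. Tagging follows the Gfap promoter and not a cell type as such. STAT3 is a transcription factor that is phosphorylated by JAK kinases after cytokines of the IL-6 family bind gp130 receptors, and that then enters the nucleus and induces its own inhibitor, Socs3. In spinal cord injury, astrocyte STAT3 is known for its part in hypertrophy, Gfap induction and formation of the scar border.

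HA IP libraries of STAT3-CKO SCI animals held 31292491 to 37970557 counts, and those of WT uninjured animals held 37267334 to 59337089 counts. Reads of Rn45s, the ribosomal RNA precursor, made up 89.2%, 80.0% and 52.2% of counts in animals 186, 531 and 270, against 12.6% to 26.7% in WT uninjured animals. Counts outside ribosomal RNA numbered 2496641, 6375510 and 17348247 in those 3 animals, against 26934866 to 51571785 in WT uninjured animals. Injury and the ribosomal share cannot be told apart. WT SCI libraries held 620265 to 2691494 such counts, with Rn45s at 89.0% to 96.2%. Levels are given as CPM, counts scaled to TMM-adjusted library size, and are relative within the fit of 11 HA IP libraries.

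Astrocyte RNA was enriched in the HA IP of both groups. Summed over 12 astrocyte markers, on the scale of the fit of all 22 libraries, HA IP held 4247 to 6315 CPM in STAT3-CKO SCI and 7927 to 8462 CPM in WT uninjured animals, and flow-through held 554 to 1306 CPM in STAT3-CKO SCI and 487 to 724 CPM in WT uninjured animals. Enrichment was not particular to astrocytes. In animals 186, 270 and 531, HA IP over flow-through was 4.67, 7.67 and 5.51 for astrocyte markers. For oligodendrocyte precursor markers it was 5.34, 5.13 and 3.89, and for myelin genes 1.28, 1.94 and 1.46. For microglia and macrophage markers it was 0.324, 0.357 and 0.394. RNA of other cells was present as well. The 19 microglia and macrophage markers summed to 1498 to 2227 CPM in the HA IP of STAT3-CKO SCI animals, against 34.97 to 79.2 CPM in that of WT uninjured animals. In flow-through they summed to 4621 to 5646 CPM in STAT3-CKO SCI and 96 to 172 CPM in WT uninjured animals. None of these 19 markers was at 0 in either group. Markers of lymphocytes and neutrophils summed to 1.93 to 3.71 CPM in STAT3-CKO SCI HA IP, against 0.0748 to 0.342 CPM in WT uninjured HA IP, with Ms4a1 and Camp among those at 0 counts in the injured animals. In bulk samples, fewer cells of a type and less RNA per cell cannot be told apart, and neither can RNA that was on tagged ribosomes and RNA that was carried over from other cells.

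**Figure D1:**
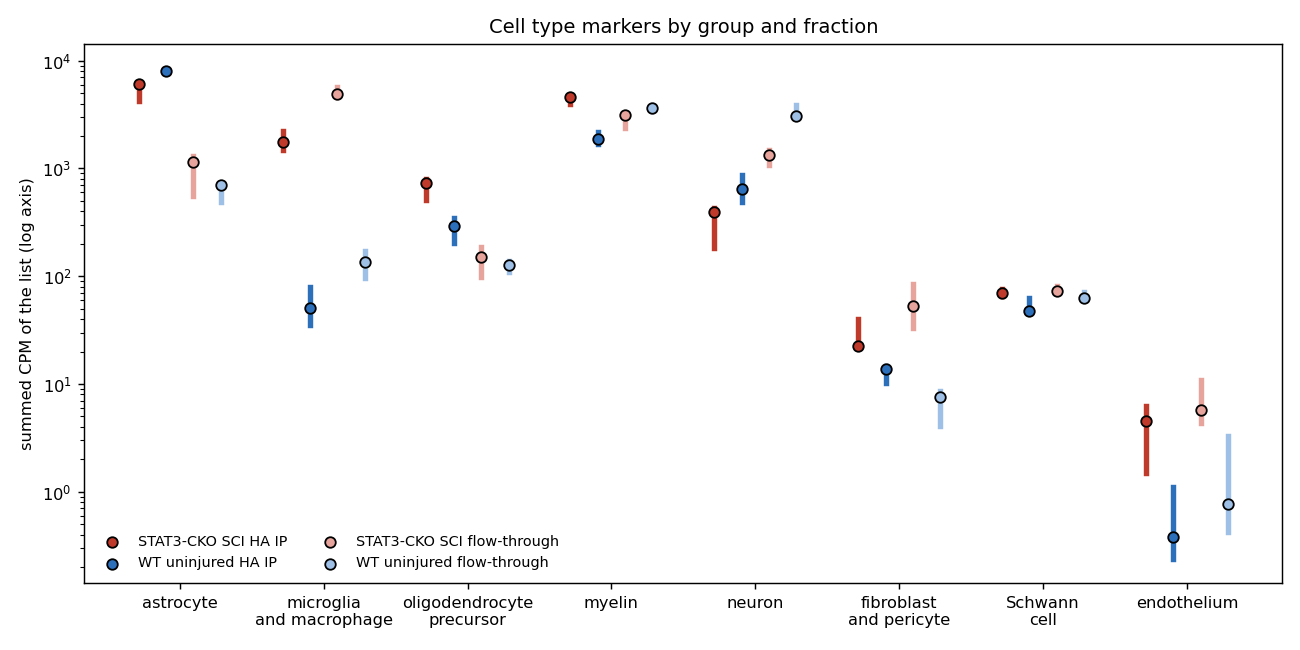
Summed levels of cell type marker lists (CPM of the fit of all 22 libraries, log axis) in HA IP and flow-through, for STAT3-CKO SCI (n = 3) and WT uninjured (n = 4). Circles are medians over animals and bars run over all animals; the microglia and macrophage sum of STAT3-CKO SCI HA IP, 1498 to 2227 CPM, lies above that of WT uninjured HA IP, 34.97 to 79.2 CPM.

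Of 14764 genes tested, 1137 (7.7%) were higher and 307 (2.08%) lower in STAT3-CKO SCI than in WT uninjured HA IP, at an adjusted p under 0.05 in edgeR's quasi-likelihood test with Benjamini-Hochberg adjustment. The called genes that were higher had a median fold of 5.91, and those that were lower a median fold of 3.17. In 1397 of the 1444 called genes, every animal of one group lay above every animal of the other. These genes had already been selected by p, and the share without overlap over all 14764 genes tested is not given here. Unadjusted p was under 0.05 for 3356 genes. Of the genes named below that passed this test, Gpx3, Id3 and Mt1 had overlapping groups, and all others did not overlap. The number called was 893 without animal 531, 848 without animal 154, 909 without animal 42, 906 without animal 65 and 875 without animal 79. Genes that were lower numbered 114 to 162 without animal 186, 531, 42, 79, 65 or 154, and 515 without WT SCI animal 9874. The authors' deposited table for these 2 groups gives 2367 of 18813 genes a false discovery rate below 0.05, 1737 of them higher. In the test of STAT3-CKO SCI against WT SCI HA IP, which shows where the 2 injured groups differ, 88 genes (0.596%) were higher and 83 (0.562%) lower. These 171 genes became 39 without animal 531, 57 without 270, 91 without 186, 102 without 42, 93 without 79, 91 without 65, 88 without 154, 295 without 9935 and 343 without 9596. The counts by direction below refer to the first of these tests unless WT SCI is named. They stand against shares over all genes tested of 7.7% higher and 2.08% lower.

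Among the 10 well-expressed genes with the largest rises were genes of phagocytes, antigen presentation and the interferon response. Cst7, a cysteine protease inhibitor of activated microglia, was at 10.9, 33.7 and 24.3 CPM in STAT3-CKO SCI animals, against 0.0118, 0, 0.0735 and 0.00349 CPM in WT uninjured animals (log2 fold change 10.15 ± 0.842, adjusted p = 2.04e-07). Lyz2, the lysozyme of macrophages, was at 475, 572 and 451 CPM in STAT3-CKO SCI animals, against 1.38, 2.10, 1.85 and 1 CPM in WT uninjured animals (log2 fold change 8.30 ± 0.526, adjusted p = 3.17e-08). The lowest injured animal was far above the highest uninjured one for both genes, and the naming rule had required groups without overlap. Gpnmb, a lysosomal glycoprotein of lipid-laden macrophages, averaged 178 ± 48.95 CPM in STAT3-CKO SCI and 1.60 ± 0.494 CPM in WT uninjured animals (111-fold). Sprr1a, a cornified-envelope protein that injured neurons are known to induce, was at 9.25, 9.12 and 26.6 CPM in STAT3-CKO SCI animals, against 0.139, 0.0209, 0.0612 and 0.0279 CPM in WT uninjured animals (log2 fold change 7.85 ± 0.715, adjusted p = 5.45e-07). Ly6a, an interferon-inducible surface protein, averaged 29.6 ± 13.9 CPM in STAT3-CKO SCI and 0.323 ± 0.144 CPM in WT uninjured animals (log2 fold change 6.51), and WT SCI animals averaged 3.48 ± 4.21 CPM. Reads of Ly6a may be shared with its close paralogs. Ly6a was higher in STAT3-CKO SCI than in WT SCI animals (log2 fold change 3.06 ± 0.648, adjusted p = 0.0253). With 1 animal left out, that call was lost for Ly6a without animal 186, 531 or 270 (adjusted p 0.0538 to 0.163).

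Among the 10 with the largest falls were genes of sterol synthesis, xenobiotic defence and secreted proteins. Insig1, which holds the sterol sensor in the endoplasmic reticulum, was at 4.13, 6.84 and 8.32 CPM in STAT3-CKO SCI animals, against 68.3, 55.4, 54.4 and 46.7 CPM in WT uninjured animals (log2 fold change -3.11 ± 0.360, adjusted p = 8.67e-06). Itih3, a hyaluronan-binding protein, was at 13.6, 11.1 and 6.31 CPM in STAT3-CKO SCI animals, against 83.5, 86.7, 90.2 and 80.6 CPM in WT uninjured animals (log2 fold change -3.05 ± 0.465, adjusted p = 0.000173). The groups did not overlap for either gene, which the naming rule had required. Gstm1, a glutathione transferase, averaged 103 ± 25.2 CPM in STAT3-CKO SCI and 560.3 ± 122 CPM in WT uninjured animals (5.43-fold lower in STAT3-CKO SCI). Chil1, a secreted chitinase-like glycoprotein, was at 1.05, 5.23 and 3.83 CPM in STAT3-CKO SCI animals, against 15.03, 21.9, 19.04 and 14.6 CPM in WT uninjured animals (log2 fold change -2.36 ± 0.441, adjusted p = 0.00130). WT SCI animals averaged 18.7 ± 5.17 CPM, and STAT3-CKO SCI animals were lower than these too (log2 fold change -2.45 ± 0.446, adjusted p = 0.0103). Without 1 animal, the second call was lost for Chil1 without animal 270 (adjusted p 0.0581). Baalc, Tlcd1 and Smyd1, a methyltransferase best known from heart and skeletal muscle, had log2 fold changes of -2.32, -2.31 and -2.38. Smyd1 was higher in STAT3-CKO SCI than in WT SCI animals (adjusted p = 0.024). That call was lost without animal 531, 270 or 9874 (adjusted p 0.0503 to 0.15).

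**Figure D2:**
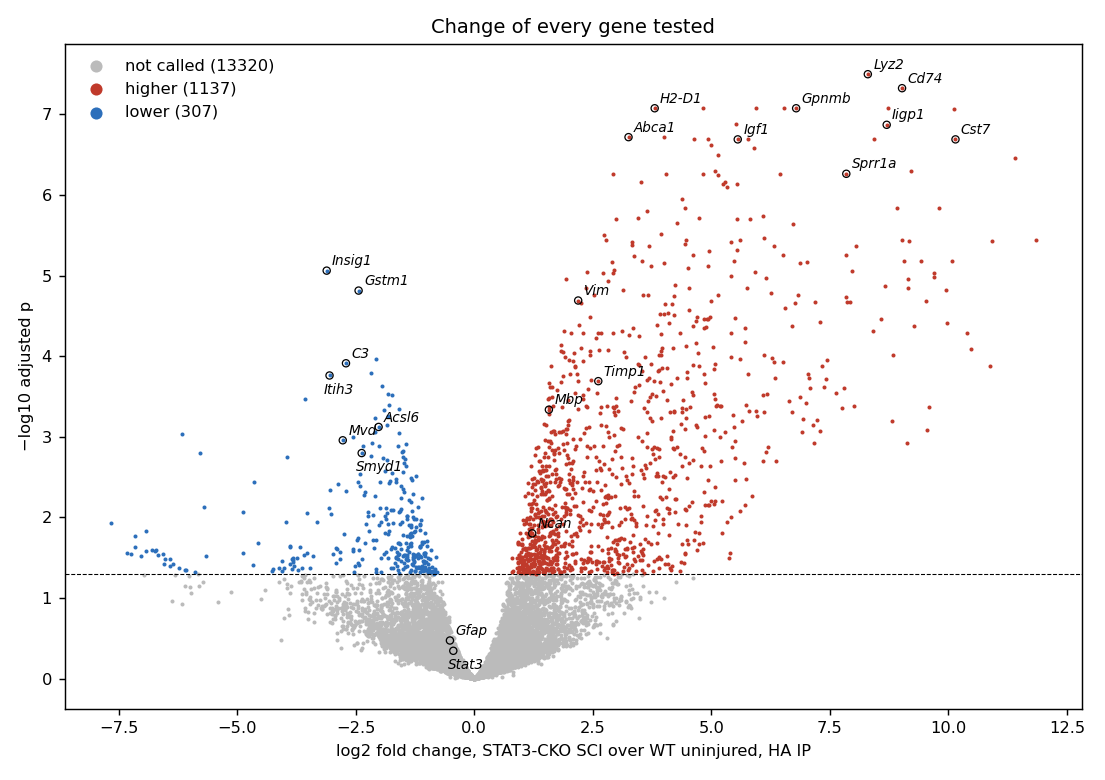
Log2 fold change of STAT3-CKO SCI over WT uninjured HA IP (x axis) against -log10 of the adjusted p (y axis) for the 14764 genes tested; each point is a gene, the dashed line marks an adjusted p of 0.05, and ringed genes are named. The 1137 genes called higher reach larger log2 fold changes at small p than the 307 called lower.

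Stat3 (chromosome 11, 100885098 to 100939540, minus strand, GRCm38) was at 7.85, 10.1 and 12.3 CPM in STAT3-CKO SCI, 66.2, 56.2, 26.3 and 34.97 CPM in WT SCI and 12.2, 14.2, 15.5 and 13.3 CPM in WT uninjured animals. It did not pass the test against WT uninjured animals (log2 fold change -0.44 ± 0.322, adjusted p = 0.452) and was lower than in WT SCI animals (log2 fold change -2.17 ± 0.345, adjusted p = 0.00331), with no overlap between the injured groups. Counts are per gene and do not separate the part between loxP sites. Stat3 in flow-through was at 12.3, 21.7 and 23.6 CPM in STAT3-CKO SCI and 11.6, 10.99, 13.8 and 13.7 CPM in WT uninjured animals on the scale of all 22 libraries (log2 fold change 0.64 ± 0.343, adjusted p = 0.246).

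Among 17 tested JAK-STAT receptors and transducers, 4 rose and 1 fell, with a median log2 fold change of 0.71 against 0.0022 over all genes tested. The number that rose was 2 to 5 with 1 animal left out, off by over 1.5 times without animal 531, 270, 42, 79 or 154, and it was 7 in the fit of the 7 libraries, in limma-voom and with thinning to equal depth. The number that fell was 0 to 1 with 1 animal left out, off by over 1.5 times without animal 186, 531, 42, 79, 65 or 154. Il6ra, the ligand-binding IL-6 receptor chain, was at 3.08, 4.02 and 4.33 CPM in STAT3-CKO SCI animals, against 0.237, 0.334, 0.263 and 0.380 CPM in WT uninjured animals (log2 fold change 3.65 ± 0.562, adjusted p = 0.000195). Il6ra was higher in every injured animal than in any uninjured one. Stat2, a transducer of type I interferon, rose (log2 fold change 1.59), as did Stat6, the transducer of IL-4 (2.81). Cntfr, the receptor for ciliary neurotrophic factor, fell (log2 fold change -0.90 ± 0.271, adjusted p = 0.0410), and it was higher in STAT3-CKO SCI than in WT SCI animals (log2 fold change 1.27 ± 0.270, adjusted p = 0.0257). Neither the shared receptor chain Il6st, at log2 fold change 0.71, nor the leukaemia inhibitory factor receptor Lifr, at 0.95, passed the test. Jak1 and Jak2 had values of -0.34 and -0.12 and did not pass it either. Osmr, the oncostatin M receptor, was at 0.981, 0.214 and 1.17 CPM in STAT3-CKO SCI animals, against 0.959, 1.18, 1.79 and 1.11 CPM in WT uninjured animals (log2 fold change -0.68 ± 0.828, adjusted p = 0.685). With the rises in this list moved the microglia and macrophage markers, which summed to 1498 to 2227 CPM in STAT3-CKO SCI and 34.97 to 79.2 CPM in WT uninjured HA IP on the scale of 22 libraries, and their part was not tested. With 1 animal left out, the call was lost for Stat2 without animal 531, 270, 42, 79, 65 or 154 (adjusted p 0.0717 to 0.181) and for Stat6 without animal 531, 270, 42, 79 or 154 (adjusted p 0.0681 to 0.103). It was also lost for Cntfr without animal 186, 531, 42, 79, 65 or 154 (adjusted p 0.0719 to 0.159). Against WT SCI, the call was lost for Cntfr without animal 186, 531, 270, 79, 65 or 154 (adjusted p 0.0540 to 0.108).

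Genes described as STAT3 targets rose in 5 of 15 tested cases, and their median log2 fold change was 1.39. A few of the listed genes also stand in the pan-reactive or JAK-STAT list (Osmr, Socs3 and Timp1). Timp1, an inhibitor of matrix metalloproteinases (chromosome X, 20870166 to 20874735), was at 2.59, 3.43 and 0.934 CPM in STAT3-CKO SCI, 105, 106, 61.7 and 50.9 CPM in WT SCI and 0.376, 0.495, 0.318 and 0.293 CPM in WT uninjured animals. It was 6.12-fold higher than in WT uninjured animals (log2 fold change 2.62 ± 0.404, adjusted p = 0.000204) and lower than in WT SCI animals (log2 fold change -5.15 ± 0.479, adjusted p = 1.15e-05). The 3 groups did not overlap. Socs3 was at 0.140, 0.214 and 0.225 CPM in STAT3-CKO SCI, 4.56, 1.70, 3.84 and 3.98 CPM in WT SCI and 0.0503, 0.193, 0.0918 and 0.153 CPM in WT uninjured animals. It did not pass the test against WT uninjured animals (log2 fold change 0.71 ± 0.721, adjusted p = 0.617) and was lower than in WT SCI animals (log2 fold change -4.12 ± 0.826, adjusted p = 0.0201). Icam1, an adhesion molecule for leukocytes, was at 2.52, 1.05 and 4.68 CPM in STAT3-CKO SCI animals, against 0.103, 0.125, 0.104 and 0.0907 CPM in WT uninjured animals (log2 fold change 4.69 ± 0.827, adjusted p = 0.000749). Cebpb, a transcription factor of acute inflammation, was at 2.66, 4.45 and 0.778 CPM in STAT3-CKO SCI animals, against 0.103, 0.266, 0.318 and 0.199 CPM in WT uninjured animals (log2 fold change 3.56 ± 0.731, adjusted p = 0.00293). Every injured animal was above every uninjured one for both. The AP-1 subunit Junb and the survival gene Bcl2l1 rose as well (log2 fold change 2.79 and 1.83). Cebpd, at log2 fold change 1.39, did not pass the test against WT uninjured animals and was lower than in WT SCI animals (-3.50, adjusted p = 0.00410). Myc, Pim1, Pim3, Bcl3 and Mcl1 had log2 fold changes of 1.73, 0.41, 0.72, 0.40 and 0.50, none past the test. Leaving out 1 animal removed the call for Junb with any 1 of the 7 animals of the comparison left out (adjusted p 0.0678 to 0.145). The call against WT SCI ended for Socs3 without animal 186, 531 or 270 (adjusted p 0.0561 to 0.0905).

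STAT dimers bind the palindrome TTCNNNGAA, which reads the same on both strands. It was searched in the 250 bases before the start of the genes of the JAK-STAT, STAT3 target and pan-reactive lists, using RefSeq promoter windows of GRCm38.p6, and no other motif was searched. Of 41 tested genes, 38 had a window and 3 of these (7.89%) held a match, against 8.13% of all 27025 genes in the promoter table. These 3 are shown with 30 bases on each side, since they combine the motif with different behaviour in the data, and capitals mark the match. 
Icam1 (chr9:21015868-21015936, plus strand, match 42 bases before the start): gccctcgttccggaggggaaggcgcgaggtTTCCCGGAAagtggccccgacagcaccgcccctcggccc
Steap4 (chr5:7960326-7960394, plus strand, match 116 bases before the start): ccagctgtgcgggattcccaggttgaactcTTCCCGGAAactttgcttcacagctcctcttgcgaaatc
Socs3 (chr11:117969482-117969550, minus strand, match 154 bases before the start): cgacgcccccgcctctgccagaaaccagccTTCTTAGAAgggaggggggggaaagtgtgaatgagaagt
Icam1 rose in STAT3-CKO SCI. Steap4, a metalloreductase at log2 fold change 1.72 (adjusted p = 0.397), and Socs3 did not pass the test. The starts are those of the RefSeq windows. For Socs3 the window searched, 117969367 to 117969616, lies inside the GENCODE span of the gene, 117966079 to 117970047 on the minus strand. It is therefore not upstream of the gene in that annotation. A match of these letters is a description of the window and says nothing of binding.

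Genes that rise in astrocytes after many kinds of injury (pan-reactive) split in STAT3-CKO SCI. Of 13 tested, 3 rose and 1 fell against WT uninjured animals, with a median log2 fold change of 0.77, and 7 were lower than in WT SCI animals. WT SCI over WT uninjured had a median of 4.13 for the same genes. Gfap, which builds astrocyte intermediate filaments (chromosome 11, 102887336 to 102900912), was at 536, 674 and 356 CPM in STAT3-CKO SCI, 3146, 2506, 1774 and 1738 CPM in WT SCI and 607, 862, 920.1 and 594 CPM in WT uninjured animals. It did not pass the test against WT uninjured animals, with which it overlapped (log2 fold change -0.51 ± 0.301, adjusted p = 0.337), and was lower than in WT SCI animals (log2 fold change -2.13 ± 0.320, adjusted p = 0.00247). Vim, a filament protein of immature and reactive astrocytes, was at 70.7, 62.3 and 81.9 CPM in STAT3-CKO SCI, 91.9, 161, 173 and 163 CPM in WT SCI and 13.4, 14.9, 20.6 and 13.9 CPM in WT uninjured animals. It rose against WT uninjured animals (log2 fold change 2.19 ± 0.273, adjusted p = 2.04e-05) and did not pass the test against WT SCI (log2 fold change -1.04 ± 0.278, adjusted p = 0.0731). Nes, a filament of neural progenitors, also rose (log2 fold change 3.59 ± 0.599, adjusted p = 0.000442). Cxcl10, an interferon-induced chemokine, was at 14.02, 34.02 and 88.7 CPM in STAT3-CKO SCI animals, against 0.180, 1.70, 0.177 and 0.248 CPM in WT uninjured animals (log2 fold change 6.32 ± 0.925, adjusted p = 0.000116). Aspg, an asparaginase, was at 0, 0 and 0.0692 CPM in STAT3-CKO SCI, 5.87, 0.566, 0 and 7.82 CPM in WT SCI and 0.459, 0.715, 0.520 and 1.21 CPM in WT uninjured animals. It fell (adjusted p = 0.0440), on 8 counts in the 3 injured animals together. Lcn2, an iron-binding acute-phase protein, was at 0, 0 and 0.259 CPM in STAT3-CKO SCI, 2.61, 18.4, 3.49 and 6.93 CPM in WT SCI and 0.00887, 0, 0 and 0.0628 CPM in WT uninjured animals (adjusted p = 0.170 against WT uninjured and 0.0240 against WT SCI). The protease inhibitor Serpina3n, at log2 fold change -0.11, and the chaperone Hspb1, at -0.16, did not pass the test against WT uninjured animals. Both were lower than in WT SCI animals, at -4.24 (adjusted p = 3.12e-05) and -5.04 (adjusted p = 3.76e-06), as was the sphingosine phosphate receptor S1pr3, at -3.68. The test was no longer passed for Aspg with any 1 of the 7 animals of the comparison left out (adjusted p 0.0596 to 0.172). Relative to WT SCI, the test was no longer passed for Aspg without animal 186, 531 or 270 (adjusted p 0.0835 to 0.122) and for Lcn2 without animal 186, 531 or 9874 (adjusted p 0.0514 to 0.103). It ended too for S1pr3 without animal 531, 270 or 9874 (adjusted p 0.0512 to 0.112).

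**Figure D3:**
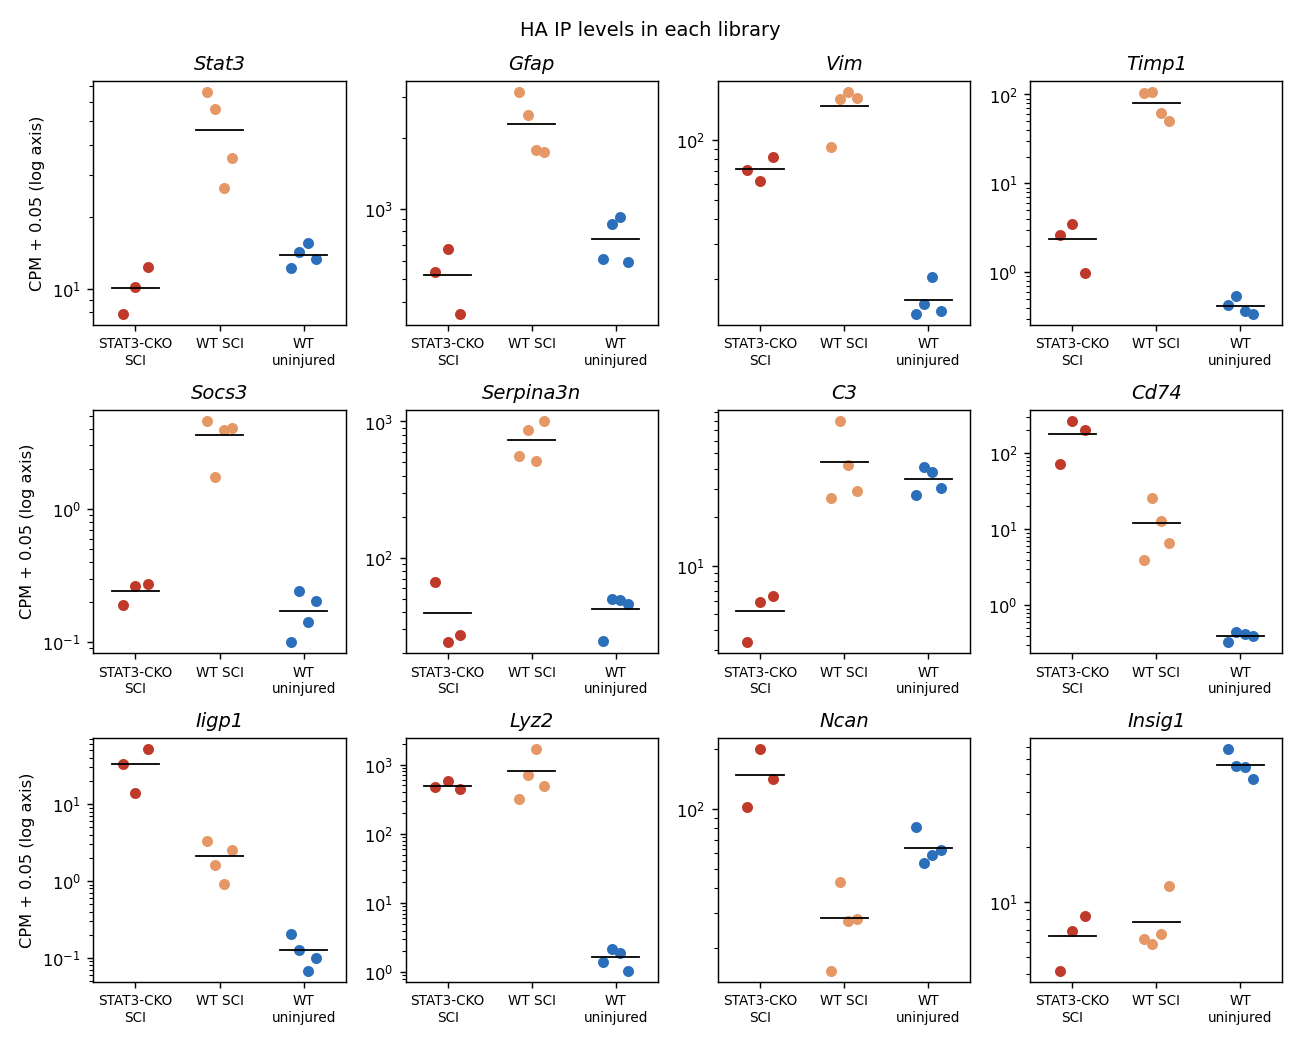
HA IP level of 12 genes in each animal (CPM + 0.05, log axis) for STAT3-CKO SCI (n = 3), WT SCI (n = 4) and WT uninjured (n = 4); points are animals and lines are means. Stat3, Gfap, Socs3 and Serpina3n of STAT3-CKO SCI lie near WT uninjured values and below every WT SCI animal, C3 lies below both other groups, and Cd74 and Iigp1 lie above both.

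Of the A1 list, genes first described in astrocytes after endotoxin, 8 of 11 tested rose, with a median log2 fold change of 3.48. Of the A2 list, described after ischaemia, 1 of 10 rose, with a median of 0.92. The A2 count was 1 to 2 with 1 animal left out, off by over 1.5 times without animal 9874, 3 with DESeq2 and 2 with limma-voom, the 7 libraries alone or thinning. Iigp1, an interferon-inducible GTPase, was at 33.01, 14.1 and 51.97 CPM in STAT3-CKO SCI, 3.26, 1.58, 0.872 and 2.47 CPM in WT SCI and 0.157, 0.0782, 0.0184 and 0.0488 CPM in WT uninjured animals. It rose against WT uninjured animals (log2 fold change 8.70 ± 0.687, adjusted p = 1.34e-07) and was also higher than in WT SCI animals (log2 fold change 4.05 ± 0.592, adjusted p = 0.00188), and the 3 groups did not overlap. H2-T23, H2-D1, Gbp2, Srgn, Psmb8 and Serping1 rose by log2 fold changes of 5.14, 3.81, 4.92, 5.06, 3.48 and 2.82. Fkbp5, a glucocorticoid-induced co-chaperone of the glucocorticoid receptor, was at 12.8, 5.07 and 4.01 CPM in STAT3-CKO SCI animals, against 1.34, 0.782, 2.05 and 2.35 CPM in WT uninjured animals (log2 fold change 2.14 ± 0.491, adjusted p = 0.00731). Amigo2, a cell adhesion protein, had a log2 fold change of -1.70 and did not pass the test (adjusted p = 0.266). The A2 gene that rose was Cd14, a co-receptor for endotoxin that is also in the microglia and macrophage list (log2 fold change 4.47 ± 0.627, adjusted p = 7.47e-05). Ptx3 and Tgm1, a pentraxin and a transglutaminase, did not pass the test against WT uninjured animals and were lower than in WT SCI animals (-5.43 and -6.53 on the log2 scale). The microglia and macrophage sum of 1498 to 2227 CPM in STAT3-CKO SCI, against 34.97 to 79.2 CPM in WT uninjured HA IP, moved with these lists, and its part in them was not tested. When single animals were left out, calls ended for Fkbp5 without animal 186 (adjusted p 0.0933). For the difference from WT SCI, the call ended for Ptx3 without animal 186, 531 or 270 (adjusted p 0.0854 to 0.130).

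Interferon-response genes rose nearly without exception. All 14 tested genes of the interferon-gamma list rose (median log2 fold change 4.78), and 15 of 18 of the type I interferon list did (median 4.06). Against WT SCI animals, 4 of the interferon-gamma list were higher. Irgm2, a GTPase of vacuole defence, was at 36.4, 46.01 and 52.4 CPM in STAT3-CKO SCI, 2.93, 10.4, 6.28 and 5.49 CPM in WT SCI and 1.56, 1.89, 1.77 and 2.05 CPM in WT uninjured animals. Its log2 fold change was 4.63 over WT uninjured and 2.81 over WT SCI (adjusted p = 0.000601), with no overlap between any 2 groups. Gbp6, a guanylate-binding protein, was at 18.99, 18.2 and 37.1 CPM in STAT3-CKO SCI, 1.96, 7.80, 4.01 and 8.98 CPM in WT SCI and 0.577, 0.407, 0.722 and 0.747 CPM in WT uninjured animals (log2 fold change 2.07 over WT SCI, adjusted p = 0.0310). Igtp, another such GTPase, had 5.14 over WT uninjured and 2.42 over WT SCI. In the type I list, Bst2, which tethers budding viruses, averaged 47.6 ± 23.7 CPM in STAT3-CKO SCI and 1.04 ± 0.452 CPM in WT uninjured animals (log2 fold change 5.52 ± 0.433, adjusted p = 1.32e-07), and WT SCI animals averaged 68.7 ± 20.7 CPM. Oasl2 was at 16.5, 29.8 and 85.2 CPM in STAT3-CKO SCI animals, against 2.02, 2.18, 1.73 and 2.18 CPM in WT uninjured animals (log2 fold change 4.44 ± 0.478, adjusted p = 4.05e-06). Ifi44 averaged 7.98 ± 5.71 CPM in STAT3-CKO SCI and 0.266 ± 0.104 CPM in WT uninjured animals (log2 fold change 4.90 ± 0.641, adjusted p = 3.45e-05). Animal 270 was the highest of the injured animals for Oasl2. Ifit2, Ifih1 and Oas2 did not pass the test, at log2 fold changes of 1.47, 0.93 and 1.95. Microglia and macrophage markers moved with both lists, with sums of 1498 to 2227 CPM in STAT3-CKO SCI and 34.97 to 79.2 CPM in WT uninjured HA IP, and their part was not tested. Against WT SCI, the call was lost for Gbp6 without animal 186, 531, 270, 42, 65, 154 or 9843 (adjusted p 0.0516 to 0.195) and for Igtp without animal 186, 531, 270, 42, 79, 65, 154, 9874, 9843 or 9596 (adjusted p 0.0703 to 0.180).

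Antigen presentation genes rose with them. 9 of 10 tested MHC class II genes rose (median log2 fold change 4.42), and 11 of 12 of the MHC class I list (median 3.20), with 3 of each list higher than in WT SCI animals. Cd74, the invariant chain that guides class II molecules to endosomes, was at 72.3, 269 and 203 CPM in STAT3-CKO SCI, 3.91, 25.4, 12.9 and 6.65 CPM in WT SCI and 0.278, 0.396, 0.373 and 0.349 CPM in WT uninjured animals. It was 520.1-fold higher than in WT uninjured animals (log2 fold change 9.02 ± 0.608, adjusted p = 4.73e-08) and also higher than in WT SCI animals (log2 fold change 3.87 ± 0.495, adjusted p = 0.000601). H2-Aa, a class II alpha chain, was at 12.3, 61.8 and 55.2 CPM in STAT3-CKO SCI, 0.652, 5.09, 4.18 and 1.44 CPM in WT SCI and 0.124, 0.115, 0.208 and 0.0593 CPM in WT uninjured animals (log2 fold change 8.43 over WT uninjured and 3.88 over WT SCI, adjusted p = 0.00277). H2-Ab1, its beta chain partner, had 8.72 over WT uninjured and 2.48 over WT SCI. Animal 186 was the lowest injured animal for these class II genes and still lay above all WT SCI animals. Ciita, the transactivator of class II genes, had a log2 fold change of 2.25 and did not pass the test (adjusted p = 0.191). In class I, H2-D1 was at 119.7, 147 and 131 CPM in STAT3-CKO SCI animals, against 9.25, 10.1, 9.38 and 9.18 CPM in WT uninjured animals (log2 fold change 3.81 ± 0.283, adjusted p = 8.38e-08). H2-K1 averaged 145 ± 31.2 CPM in STAT3-CKO SCI and 19.2 ± 0.601 CPM in WT uninjured animals. Both H2-D1 and H2-K1 were higher than in WT SCI animals (adjusted p = 0.0199 and 0.0262). B2m, the light chain of class I, rose by 1.97 on the log2 scale and was 2.10 higher than in WT SCI animals (adjusted p = 0.00433). The peptide transporter Tap1 and the class I transactivator Nlrc5 rose by 5.41 and 6.33. Counts of H2 genes are uncertain, since close paralogs can share reads. Microglia and macrophage markers summed to 1498 to 2227 CPM in STAT3-CKO SCI and 1081 to 3397 CPM in WT SCI HA IP. In WT uninjured HA IP they summed to 34.97 to 79.2 CPM. Their part in these rises was not tested. The call against WT SCI ended for H2-Ab1 and H2-D1 without animal 531 or 270 (adjusted p 0.0692 to 0.119) and for H2-K1 without animal 531, 270, 79, 65 or 154 (adjusted p 0.0551 to 0.131).

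Complement genes rose in 9 of 15 tested cases (median log2 fold change 2.82), and C3 fell. C3, the central component that is cleaved to tag targets for engulfment, was at 3.29, 5.87 and 6.45 CPM in STAT3-CKO SCI, 26.4, 79.97, 42.2 and 29.2 CPM in WT SCI and 27.5, 41.3, 38.2 and 30.5 CPM in WT uninjured animals. It was lower than in WT uninjured animals (log2 fold change -2.71 ± 0.398, adjusted p = 0.000122) and than in WT SCI animals (log2 fold change -3.08 ± 0.407, adjusted p = 0.000676), with every STAT3-CKO SCI animal below every other animal. The 3 chains of C1q, the recognition unit made mainly by microglia, rose, with C1qa at 139.9, 159 and 68.1 CPM in STAT3-CKO SCI animals, against 0.633, 1.45, 2.30 and 0.931 CPM in WT uninjured animals (log2 fold change 6.53 ± 0.488, adjusted p = 8.38e-08). C1qb and C1qc had log2 fold changes of 4.47 and 4.94. The C1 proteases C1s1 and C1ra, and the anaphylatoxin receptors C3ar1 and C5ar1, rose by 3.54, 3.96, 6.15 and 4.71 on the log2 scale. C4b, at 0.55, did not pass the test and was lower than in WT SCI animals (-2.12, adjusted p = 0.00277). Of 16 tested chemokines and cytokines (23 listed), 12 rose, with a median of 4.59. Cxcl16, a transmembrane chemokine, was at 19.2, 18.6 and 11.8 CPM in STAT3-CKO SCI animals, against 0.465, 0.454, 0.624 and 0.534 CPM in WT uninjured animals (log2 fold change 4.99 ± 0.422, adjusted p = 2.38e-07). Ccl9 averaged 4.92 ± 0.787 CPM in STAT3-CKO SCI and 0.214 ± 0.113 CPM in WT uninjured animals (log2 fold change 4.53 ± 0.546, adjusted p = 1.41e-05). Ccl4, an attractant of monocytes, was at 1.47, 2.79 and 1.30 CPM in STAT3-CKO SCI animals, against 0, 0.00522, 0 and 0 CPM in WT uninjured animals, the uninjured value resting on 1 count in all 4 animals (adjusted p = 9.17e-06). Cxcl12, Cxcl14 and the alarmin Il33 had log2 fold changes of -0.49, -0.50 and -0.79 and did not pass the test. C1q chains are themselves microglia and macrophage markers, and the part of the sum of 1498 to 2227 CPM, against 34.97 to 79.2 CPM in WT uninjured HA IP, in these rises was not tested. Calls that did not hold with 1 animal fewer were those for C1s1 without animal 186, 531, 42, 79 or 154 (adjusted p 0.0593 to 0.269).

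Genes of the resting functions of astrocytes fell in part. Of 13 tested genes for water, potassium and gap junctions, 4 fell (1 to 4 with 1 animal left out, off by over 1.5 times without animal 186, 531, 270, 42, 79 or 65), with a median log2 fold change of -0.66. Gja1 and Gjb6, the connexins that couple astrocytes, were at 92.1, 67.3 and 83.05 CPM in STAT3-CKO SCI animals, against 204, 151, 162 and 158 CPM in WT uninjured animals, and at 53.05, 39.5 and 39.4 CPM in STAT3-CKO SCI animals, against 109, 118, 132 and 115 CPM in WT uninjured animals, with no overlap. Their log2 fold changes were -1.06 ± 0.282 and -1.43 ± 0.266 (adjusted p = 0.0203 and 0.00124). The inward rectifier Kcnj16 was at 38.2, 36.7 and 37.2 CPM in STAT3-CKO SCI animals, against 121, 98.1, 106 and 93.3 CPM in WT uninjured animals (log2 fold change -1.49 ± 0.420, adjusted p = 0.0292), and Kcnj10, its partner in potassium buffering, fell too (-0.83). Aqp4, the water channel of endfeet, was at 310.4, 413 and 644 CPM in STAT3-CKO SCI animals, against 511, 354, 435 and 375 CPM in WT uninjured animals, which overlapped (log2 fold change 0.12 ± 0.264, adjusted p = 0.831). Of 14 tested genes for amino acid uptake and metabolism, 3 fell (0 to 4 with 1 animal left out, off by over 1.5 times without animal 186, 531, 42, 79, 65 or 154; 7 in a fit of the 7 libraries alone), with a median of -0.56. The glutamate transporter Slc1a3 averaged 28.7 ± 7.98 CPM in STAT3-CKO SCI and 64.6 ± 8.64 CPM in WT uninjured animals (log2 fold change -1.17 ± 0.352, adjusted p = 0.0416). Glud1, which oxidises glutamate, averaged 202 ± 51.03 CPM in STAT3-CKO SCI and 437 ± 50.4 CPM in WT uninjured animals, and the glycine transporter Slc6a9 59.05 ± 18.02 CPM in STAT3-CKO SCI and 122 ± 2.67 CPM in WT uninjured animals (-1.12 and -1.05 on the log2 scale). Slc1a2, the main glutamate transporter, was at 929, 777 and 761 CPM in STAT3-CKO SCI animals, against 2124, 467, 532 and 999.5 CPM in WT uninjured animals and did not pass the test, the uninjured animals being spread more widely than the injured ones. Glud1 was higher in STAT3-CKO SCI than in WT SCI animals (log2 fold change 1.16, adjusted p = 0.0336). Of 12 tested neurotransmitter receptors, 1 fell (0 to 3 with 1 animal left out, off by over 1.5 times without animal 186, 531, 270, 42 or 9874; 4 in the fit of the 7 libraries). It was Gabrg1, a GABA-A receptor subunit, at 4.06, 4.77 and 11.01 CPM in STAT3-CKO SCI animals, against 27.6, 24.01, 24.9 and 22.7 CPM in WT uninjured animals (log2 fold change -1.89 ± 0.484, adjusted p = 0.0158). Of the 12 astrocyte markers, 3 fell (1 to 3 with 1 animal left out, off by over 1.5 times without animal 531 or 42), namely Gja1, Gjb6 and Slc1a3, and the median was -0.50. Aldh1l1, a folate enzyme used to identify astrocytes, was at 28.7, 33.6 and 16.9 CPM in STAT3-CKO SCI animals, against 26.2, 33.6, 40.9 and 31.9 CPM in WT uninjured animals (log2 fold change -0.33 ± 0.377, adjusted p = 0.660). In fits with 1 animal fewer, the call ended for Gja1 without animal 531 or 42 (adjusted p 0.0668 to 0.111) and for Kcnj16 without animal 186, 531, 270, 42, 79 or 65 (adjusted p 0.0533 to 0.114). The same held for Kcnj10 and Slc6a9 with any 1 of the 7 animals of the comparison left out (adjusted p 0.0545 to 0.205) and for Slc1a3 without animal 186, 531, 42, 79, 65 or 154 (adjusted p 0.0646 to 0.179). Further calls lost were those for Glud1 without animal 186 (adjusted p 0.0621) and for Gabrg1 without animal 186, 531 or 42 (adjusted p 0.0515 to 0.0985). Relative to WT SCI, the test was no longer passed for Glud1 without animal 531, 270, 42, 79, 65, 154, 9874 or 9843 (adjusted p 0.0501 to 0.158).

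Of 19 tested transcription factors of astrocyte identity and the Notch pathway, 2 rose (0 to 2 with 1 animal left out, off by over 1.5 times without animal 186, 531, 42, 79, 65 or 154) and 1 fell (1 to 2 with 1 animal left out, off by over 1.5 times without animal 9935, 9874 or 9596), with a median log2 fold change of 0.032. The members past the test were inhibitors of DNA binding. Id3 was at 102, 50 and 25.99 CPM in STAT3-CKO SCI animals, against 13.6, 27.9, 23.2 and 14.2 CPM in WT uninjured animals (log2 fold change 1.58 ± 0.409, adjusted p = 0.0169), Id1 averaged 11.1 ± 5.44 CPM in STAT3-CKO SCI and 2.49 ± 0.455 CPM in WT uninjured animals (log2 fold change 2.15 ± 0.599, adjusted p = 0.0276). Id2 averaged 22.6 ± 12.03 CPM in STAT3-CKO SCI and 89.9 ± 28.9 CPM in WT uninjured animals (log2 fold change -1.99 ± 0.419, adjusted p = 0.00361). Id1 and Id3 thus stood opposite to Id2 in direction. Sox9, Nfia, Nfib and Sox2, which set and hold glial fate, had log2 fold changes of -0.47, -0.28, -0.094 and -0.053 and did not pass the test. Among 12 genes for synapse organisation and engulfment, 1 fell (0 to 1 with 1 animal left out, off by over 1.5 times without animal 531, 270, 79, 65 or 154), and 0 rose (0 to 2 with 1 animal left out, off by over 1.5 times without animal 186, 9935, 9874, 9843 or 9596; 2 with DESeq2, limma-voom, the 7 libraries alone or thinning). The member that fell was Sparc, a secreted antagonist of synapse formation, at 995, 948 and 737 CPM in STAT3-CKO SCI animals, against 1528, 1807, 1770 and 2084 CPM in WT uninjured animals (log2 fold change -1.01 ± 0.273, adjusted p = 0.0229). Its relative Sparcl1, at -0.53, did not pass the test against WT uninjured animals and was higher than in WT SCI animals (1.43, adjusted p = 0.00956). Mertk and Megf10, receptors for engulfment, were at 0.76 and -0.39. Omitting a single animal ended the call for Id1 without animal 186, 531, 42, 79, 65 or 154 (adjusted p 0.0653 to 0.131) and for Id3 without animal 186, 42 or 154 (adjusted p 0.0689 to 0.218). It was also lost for Sparc without animal 531, 270, 79, 65 or 154 (adjusted p 0.0527 to 0.0825). For the difference from WT SCI, the call ended for Sparcl1 without animal 531 (adjusted p 0.0734).

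**Figure D4:**
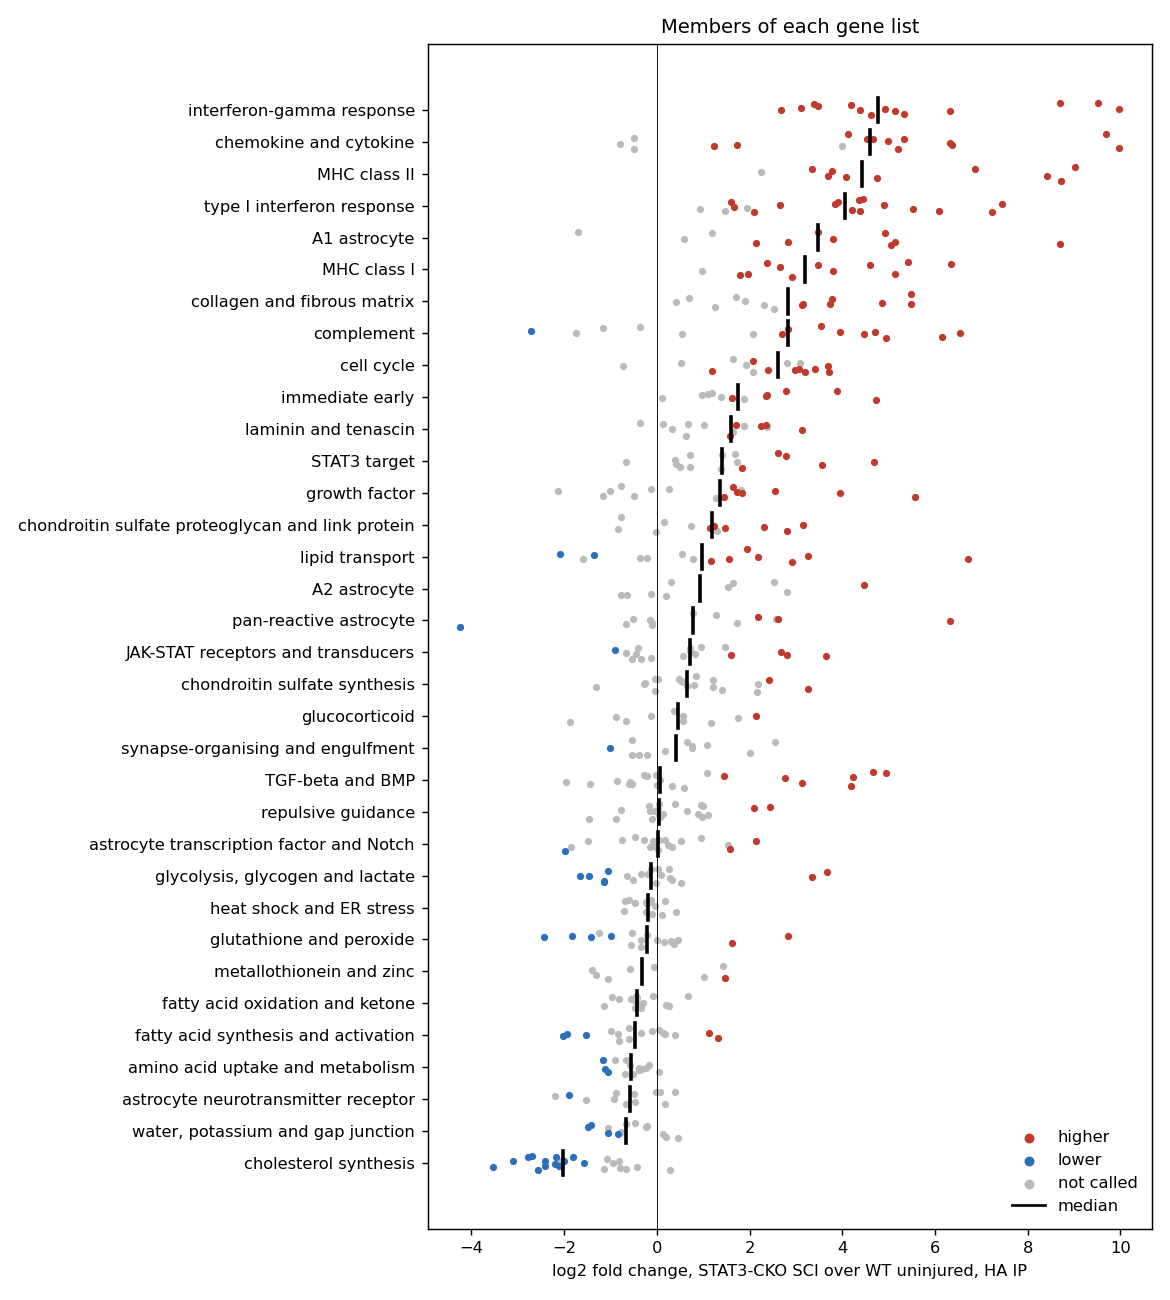
Log2 fold change of STAT3-CKO SCI over WT uninjured HA IP for the tested members of each gene list, ordered by the list median (black line); each point is a gene, coloured by whether it was called higher, called lower or not called. Interferon, chemokine, antigen presentation and A1 lists stand at the top with medians above 3, and cholesterol synthesis stands at the bottom with a median of -2.04. Cell type marker lists are not drawn.

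Sterol synthesis fell broadly. Of 22 tested genes of the pathway and its control, 13 fell, with a median log2 fold change of -2.04, and WT SCI over WT uninjured had a median of -1.57. Fdft1, squalene synthase, was at 17.7, 10.5 and 10.03 CPM in STAT3-CKO SCI animals, against 49.8, 58.8, 67.5 and 55.4 CPM in WT uninjured animals (log2 fold change -2.19 ± 0.330, adjusted p = 0.000160). Mvd, which makes isopentenyl diphosphate, was at 1.54, 4.32 and 2.29 CPM in STAT3-CKO SCI animals, against 16.9, 19.4, 25.5 and 13.4 CPM in WT uninjured animals (log2 fold change -2.78 ± 0.510, adjusted p = 0.00111). No injured animal reached the lowest uninjured one in either gene. Cyp51 and Msmo1, which demethylate lanosterol and its products, averaged 15.01 ± 1.51 CPM in STAT3-CKO SCI and 64.4 ± 8.40 CPM in WT uninjured animals, and 8.52 ± 4.88 CPM in STAT3-CKO SCI and 49.9 ± 9.44 CPM in WT uninjured animals (-2.10 and -2.56 on the log2 scale). Fdps, Idi1, Sqle, Nsdhl, Tm7sf2, Sc5d, Pmvk and Hmgcs1 fell by log2 fold changes between -1.58 and -3.53. The regulator Srebf2, at 0.28, did not pass the test. Idi1 alone of the list differed between the injured groups, higher in STAT3-CKO SCI than in WT SCI animals (2.73, adjusted p = 0.0364). In lipid transport, 7 of 14 rose and 2 fell (1 to 3 with 1 animal left out, off by over 1.5 times without animal 186, 531, 79 or 65). Abca1, which exports cholesterol to apolipoproteins, was at 66.3, 82.7 and 74.6 CPM in STAT3-CKO SCI animals, against 9.24, 7.82, 7.70 and 6.50 CPM in WT uninjured animals (log2 fold change 3.25 ± 0.265, adjusted p = 1.91e-07). Lpl, which frees fatty acids from lipoproteins, was at 10.8, 20.6 and 17.4 CPM in STAT3-CKO SCI animals, against 1.91, 1.95, 2.72 and 2.04 CPM in WT uninjured animals (log2 fold change 2.92 ± 0.398, adjusted p = 5.19e-05). Apod was at 136, 408 and 392 CPM in STAT3-CKO SCI animals, against 52.6, 77.7, 59.6 and 85.6 CPM in WT uninjured animals (log2 fold change 2.18 ± 0.337, adjusted p = 0.000204). The groups did not overlap for any of the 3 genes. The scavenger receptor Cd36, the exporter Abcg1, the droplet coat Plin2 and Apoe rose by 6.70, 1.95, 1.55 and 1.17 on the log2 scale. The fatty acid binding proteins Fabp7 and Fabp5 fell, averaging 22.6 ± 4.12 CPM in STAT3-CKO SCI and 96.04 ± 24.4 CPM in WT uninjured animals, and 24.2 ± 8.42 CPM in STAT3-CKO SCI and 62.4 ± 15.9 CPM in WT uninjured animals. The part of the microglia and macrophage markers, 18 of 19 of which rose, in the lipid transport rises was not tested. In fatty acid synthesis, 2 of 16 rose (0 to 2 with 1 animal left out, off by over 1.5 times without animal 531, 270, 42, 79, 65 or 154) and 3 fell. Acsl6, which activates long-chain and polyunsaturated fatty acids, was at 26.6, 24.5 and 32.8 CPM in STAT3-CKO SCI, 8.80, 15.5, 3.49 and 7.27 CPM in WT SCI and 116, 113, 119.6 and 106 CPM in WT uninjured animals. It fell against WT uninjured animals (log2 fold change -2.02 ± 0.356, adjusted p = 0.000754) and was higher than in WT SCI animals (log2 fold change 1.67 ± 0.345, adjusted p = 0.0237). The desaturases Fads1 and Scd1 averaged 67.6 ± 8.82 CPM in STAT3-CKO SCI and 260.3 ± 23.7 CPM in WT uninjured animals, and 112 ± 4.10 CPM in STAT3-CKO SCI and 323 ± 30.7 CPM in WT uninjured animals (-1.94 and -1.53). Srebf1, a regulator of fatty acid synthesis, and Acsl5 rose (1.13 and 1.31). Of 15 genes for fatty acid oxidation and ketones, 0 were called in either direction by edgeR, with 1 at an unadjusted p under 0.05, 0 by DESeq2 and 1 by limma-voom. By edgeR, 2 were called lower in the fit of the 7 libraries and 1 without animal 9874. Etfdh had the smallest p, at 7.71, 4.99 and 9.03 CPM in STAT3-CKO SCI animals, against 13.9, 16.6, 17.4 and 16.1 CPM in WT uninjured animals (log2 fold change -1.14 ± 0.458, adjusted p = 0.133). With 1 animal left out, the call was lost for Pmvk and Fabp5 without animal 186, 531, 79 or 65 (adjusted p 0.0512 to 0.101) and for Plin2 without animal 186 or 531 (adjusted p 0.0552 to 0.0674). It ended too for Apoe and Srebf1 without animal 531, 42 or 154 (adjusted p 0.0645 to 0.134) and for Acsl5 without animal 531, 270, 42, 79, 65 or 154 (adjusted p 0.0563 to 0.175). Against WT SCI, the call was lost for Idi1 without animal 186, 531, 270, 42, 79, 65, 154, 9874 or 9596 (adjusted p 0.0519 to 0.123) and for Acsl6 without animal 186, 531 or 270 (adjusted p 0.0538 to 0.112).

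Glycolytic genes fell in part, beside shares over all genes tested of 7.7% called higher and 2.08% called lower. Of 19 tested, 2 rose (1 to 2 with 1 animal left out, off by over 1.5 times without animal 186, 531, 42, 79, 65 or 154) and 5 fell (2 to 5 with 1 animal left out, off by over 1.5 times without animal 186, 270, 79 or 65). Aldoa, an aldolase, was at 38.7, 76.98 and 73.2 CPM in STAT3-CKO SCI animals, against 132, 195, 191 and 174 CPM in WT uninjured animals (log2 fold change -1.46 ± 0.285, adjusted p = 0.00189). Pgk1 averaged 21.6 ± 8.63 CPM in STAT3-CKO SCI and 67.96 ± 12.7 CPM in WT uninjured animals (log2 fold change -1.65 ± 0.343, adjusted p = 0.00333). Tpi1, Pfkp and the lactate dehydrogenase subunit Ldhb also fell (-1.14, -1.05 and -1.14 on the log2 scale). Hk2, an inducible hexokinase, was at 5.82, 1.15 and 2.58 CPM in STAT3-CKO SCI animals, against 0.118, 0.230, 0.367 and 0.269 CPM in WT uninjured animals (log2 fold change 3.67 ± 0.602, adjusted p = 0.000365), and the lactate exporter Slc16a3 rose (3.35). Of 19 genes for glutathione and peroxides, 2 rose (1 to 2 with 1 animal left out, off by over 1.5 times without animal 186, 42 or 65) and 4 fell. The falls were in the transferases Gstm1, Gstm5 and Gsta4 (-2.44, -1.83 and -1.43) and Sod1 (-0.999). Hmox1, which degrades haem, was at 9.04, 19.97 and 12.5 CPM in STAT3-CKO SCI animals, against 1.17, 2.02, 2.05 and 2.59 CPM in WT uninjured animals (log2 fold change 2.82 ± 0.400, adjusted p = 8.28e-05), and the secreted peroxidase Gpx3 averaged 18.8 ± 11.8 CPM in STAT3-CKO SCI and 6.05 ± 2.45 CPM in WT uninjured animals (log2 fold change 1.63 ± 0.413, adjusted p = 0.0153). In limma-voom Gpx3 had an adjusted p of 0.059. Mt1, a zinc-binding metallothionein, was the member of 8 that rose (0 to 2 with 1 animal left out, off by over 1.5 times without animal 186, 531, 270, 42, 79 or 154). It was at 1317, 880.4 and 255 CPM in STAT3-CKO SCI, 4925, 4443, 2884 and 3197 CPM in WT SCI and 169, 332, 392 and 288 CPM in WT uninjured animals. Animal 270 overlapped WT uninjured animals. Mt1 was higher than in WT uninjured (log2 fold change 1.47 ± 0.406, adjusted p = 0.0258) and lower than in WT SCI animals (log2 fold change -2.24 ± 0.439, adjusted p = 0.0169), and Mt2 was lower than in WT SCI as well (-2.10). Reads of Mt1 and Mt2 may be shared. Of 10 glucocorticoid-response genes, 1 rose, Fkbp5 (0 to 2 with 1 animal left out, off by over 1.5 times without animal 186, 9843 or 9596). Of 14 genes for heat shock and endoplasmic reticulum stress, 0 were called by edgeR, 0 had an unadjusted p under 0.05, and 0 were called by DESeq2 or limma-voom. Hspa5, the main chaperone of that compartment, was at 20.7, 14.2 and 28.98 CPM in STAT3-CKO SCI animals, against 38, 27.7, 30.4 and 34.2 CPM in WT uninjured animals (log2 fold change -0.61 ± 0.377, adjusted p = 0.367). Leaving out 1 animal removed the call for Tpi1 and Ldhb without animal 186, 270, 79 or 65 (adjusted p 0.0581 to 0.0804) and for Pfkp without animal 186, 531, 270, 79 or 65 (adjusted p 0.0608 to 0.111). The same held for Slc16a3 without animal 186, 531, 42, 79, 65 or 154 (adjusted p 0.0622 to 0.132) and for Sod1 without animal 186, 79 or 65 (adjusted p 0.0635 to 0.0893). Further calls lost were those for Gpx3 without animal 186, 42 or 65 (adjusted p 0.0573 to 0.181) and for Mt1 without animal 186, 531, 42, 79 or 154 (adjusted p 0.0601 to 0.233). The call against WT SCI ended for Mt1 and Mt2 without animal 531 (adjusted p 0.0734 to 0.0877).

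Proteoglycan core proteins, which carry the chondroitin sulfate chains of scar and perineuronal matrix, rose in 6 of 12 tested cases (3 to 6 with 1 animal left out, off by over 1.5 times without animal 79 or 154), with a median log2 fold change of 1.18. Of these, 2 were higher than in WT SCI animals. Ncan, neurocan, was at 102, 200.1 and 141 CPM in STAT3-CKO SCI, 15.3, 42.6, 27.2 and 28.1 CPM in WT SCI and 80.7, 53.2, 58.4 and 61.8 CPM in WT uninjured animals. It was higher than in WT uninjured (log2 fold change 1.22 ± 0.312, adjusted p = 0.0158) and WT SCI animals (log2 fold change 2.38 ± 0.321, adjusted p = 0.000860), and the 3 groups did not overlap. Bcan, brevican, was at 263, 194 and 109 CPM in STAT3-CKO SCI, 92.9, 72.7, 39.1 and 75.1 CPM in WT SCI and 74.4, 97.4, 95.3 and 73.7 CPM in WT uninjured animals, and it too was higher than in both (log2 fold changes 1.15 and 1.43, adjusted p = 0.0237 and 0.0306). Vcan, versican, averaged 38.8 ± 15 CPM in STAT3-CKO SCI and 7.87 ± 1.26 CPM in WT uninjured animals (log2 fold change 2.30 ± 0.375, adjusted p = 0.000344), and Cspg4, NG2, which also marks oligodendrocyte precursors, averaged 19.6 ± 5.07 CPM in STAT3-CKO SCI and 2.79 ± 0.373 CPM in WT uninjured animals (log2 fold change 2.82 ± 0.335, adjusted p = 1.18e-05). The small proteoglycans Bgn and Dcn, which bind collagen, rose by 1.46 and 3.16. Acan, Cspg5 and Ptprz1 did not pass the test, at 1.30, 0.75 and -0.029. Oligodendrocyte precursor markers, which share Cspg4 with this list, summed to 506 to 801 CPM in STAT3-CKO SCI, 582 to 776 CPM in WT SCI and 205 to 343 CPM in WT uninjured HA IP, and their part was not tested. Of 19 enzymes of chondroitin sulfate synthesis, 2 rose (1 to 4 with 1 animal left out, off by over 1.5 times without animal 186 or 9596; 7 in the fit of the 7 libraries). Ust, which sulfates uronic acid, was at 18.9, 13.8 and 8.56 CPM in STAT3-CKO SCI animals, against 3.43, 2.02, 2.42 and 2.40 CPM in WT uninjured animals (log2 fold change 2.41 ± 0.426, adjusted p = 0.000765). Chst14, which sulfates dermatan, was at 9.04, 3.24 and 1.06 CPM in STAT3-CKO SCI animals, against 0.296, 0.683, 0.422 and 0.422 CPM in WT uninjured animals (log2 fold change 3.27 ± 0.756, adjusted p = 0.00774). The test was no longer passed for Ncan without animal 531, 79, 65 or 154 (adjusted p 0.0561 to 0.138) and for Bcan without animal 186, 531, 42, 79 or 154 (adjusted p 0.0535 to 0.176). It was also lost for Dcn without animal 270, 42, 79, 65 or 154 (adjusted p 0.0553 to 0.0863) and for Chst14 without animal 186 (adjusted p 0.107). Relative to WT SCI, the test was no longer passed for Bcan without animal 186, 531, 42, 79, 65, 154 or 9843 (adjusted p 0.0503 to 0.123).

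Fibrous matrix rose alongside. Of 14 tested collagens and fibrous matrix genes, 7 rose, with a median log2 fold change of 2.83. Fn1, fibronectin, was at 7.36, 14.2 and 17.2 CPM in STAT3-CKO SCI animals, against 0.689, 0.480, 0.447 and 0.174 CPM in WT uninjured animals (log2 fold change 4.85 ± 0.650, adjusted p = 4.43e-05). Col1a1 averaged 3.50 ± 2.43 CPM in STAT3-CKO SCI and 0.405 ± 0.104 CPM in WT uninjured animals (log2 fold change 3.12 ± 0.626, adjusted p = 0.00244), Col5a1 2.11 ± 1.04 CPM in STAT3-CKO SCI and 0.156 ± 0.0527 CPM in WT uninjured animals, and Postn, periostin, 2.30 ± 1.82 CPM in STAT3-CKO SCI and 0.0511 ± 0.0344 CPM in WT uninjured animals (log2 fold change 5.48 ± 0.967, adjusted p = 0.000750). Col3a1 was at 0.981, 0.885 and 5.71 CPM in STAT3-CKO SCI animals, against 0.0177, 0.141, 0 and 0.0663 CPM in WT uninjured animals, with animal 270 well above the other injured animals. Fibroblast and pericyte markers summed to 21.9 to 40.2 CPM in STAT3-CKO SCI, against 10.3 to 14.6 CPM in WT uninjured HA IP, on the scale of all 22 libraries. Of 11 tested, 3 rose, all of them also matrix genes (Col1a1, Col3a1 and Dcn), and their part in the rise was not tested. Of 14 laminins, tenascins and basement membrane genes, 5 rose (2 to 6 with 1 animal left out, off by over 1.5 times without animal 186, 531, 270, 42, 79, 65 or 154). Tnr, the tenascin of perineuronal nets, was at 27.1, 30.8 and 29.8 CPM in STAT3-CKO SCI animals, against 5.76, 6.02, 6.12 and 4.98 CPM in WT uninjured animals (log2 fold change 2.36 ± 0.285, adjusted p = 1.42e-05). Hspg2, perlecan, averaged 6.56 ± 2.55 CPM in STAT3-CKO SCI and 0.741 ± 0.0823 CPM in WT uninjured animals (log2 fold change 3.14 ± 0.557, adjusted p = 0.000792). Lamc1, Tnc and Agrn rose by 1.71, 2.26 and 1.57 on the log2 scale. When single animals were left out, calls ended for Lamc1 without animal 186, 531, 270, 79, 65 or 154 (adjusted p 0.0501 to 0.0722) and for Tnc without animal 531, 270, 42, 79, 65 or 154 (adjusted p 0.0843 to 0.148). It ended too for Agrn with any 1 of the 7 animals of the comparison left out (adjusted p 0.0699 to 0.217).

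Growth factors rose in 7 of 16 tested cases (19 listed), with a median log2 fold change of 1.36. Igf1, which supports neurons and myelin, was at 14.4, 25.2 and 23.5 CPM in STAT3-CKO SCI animals, against 0.660, 0.271, 0.361 and 0.485 CPM in WT uninjured animals (log2 fold change 5.56 ± 0.462, adjusted p = 2.04e-07). Igf2 averaged 20.9 ± 9.02 CPM in STAT3-CKO SCI and 1.36 ± 0.130 CPM in WT uninjured animals (log2 fold change 3.94 ± 0.412, adjusted p = 3.05e-06). Tgfa, a ligand of the EGF receptor, averaged 26.9 ± 8.70 CPM in STAT3-CKO SCI and 7.55 ± 1.49 CPM in WT uninjured animals (log2 fold change 1.83 ± 0.328, adjusted p = 0.000863). Fgf2, Csf1, Pdgfa and Hbegf rose by 2.56, 1.73, 1.63 and 1.44, while Bdnf, at -0.77, Vegfa, at -1.02, and Cntf, at -2.13, did not pass the test. In TGF-beta and BMP signalling, 7 of 21 rose, and the median was 0.073. Tgfbr1, the type I receptor, was at 20.1, 35.5 and 17.5 CPM in STAT3-CKO SCI animals, against 3.13, 2.88, 2.71 and 2.35 CPM in WT uninjured animals (log2 fold change 3.14 ± 0.382, adjusted p = 1.52e-05). The ligand Tgfb1 averaged 3.84 ± 0.675 CPM in STAT3-CKO SCI and 0.149 ± 0.0407 CPM in WT uninjured animals (log2 fold change 4.67 ± 0.650, adjusted p = 6.80e-05). Bmp4, a ligand that acts on precursor cells, averaged 13.96 ± 6.67 CPM in STAT3-CKO SCI and 0.750 ± 0.270 CPM in WT uninjured animals (log2 fold change 4.22 ± 0.521, adjusted p = 1.80e-05). Tgfbr2, Tgfbi and Smad7 rose as well, by 4.19, 2.77 and 1.44. Of 22 repulsive guidance genes, 2 rose, with a median log2 fold change of 0.055. Over all genes tested, 7.7% were called higher. Sema4d was at 31.4, 49.98 and 39.5 CPM in STAT3-CKO SCI animals, against 8.01, 8.31, 6.25 and 6.99 CPM in WT uninjured animals (log2 fold change 2.45 ± 0.351, adjusted p = 9.53e-05). Sema3d averaged 8.65 ± 0.840 CPM in STAT3-CKO SCI and 2.03 ± 0.335 CPM in WT uninjured animals (log2 fold change 2.09 ± 0.410, adjusted p = 0.00199). Sema3a overlapped between the groups, at 0.631, 1.37 and 3.65 CPM in STAT3-CKO SCI animals, against 2.45, 1.64, 1.73 and 2.05 CPM in WT uninjured animals (log2 fold change -0.032 ± 0.623, adjusted p = 0.983). Sema3f was at 0, 0.0804 and 0.104 CPM in STAT3-CKO SCI animals, against 0.248, 0.277, 0.0979 and 0.206 CPM in WT uninjured animals and did not pass the test either (adjusted p = 0.395). Sums of microglia and macrophage markers (1498 to 2227 CPM in STAT3-CKO SCI, 34.97 to 79.2 CPM in WT uninjured HA IP) and of fibroblast and pericyte markers (21.9 to 40.2 CPM and 10.3 to 14.6 CPM in the same groups) moved with these lists, and their part was not tested. Calls that did not hold with 1 animal fewer were those for Fgf2 without animal 186 (adjusted p 0.118) and for Hbegf without animal 531 or 154 (adjusted p 0.0714 to 0.123). The same held for Tgfbi without animal 531 (adjusted p 0.0725) and for Smad7 without animal 186, 270, 42, 79, 65 or 154 (adjusted p 0.0805 to 0.146).

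Of 16 tested cell cycle genes, 9 rose (3 to 11 with 1 animal left out, off by over 1.5 times without animal 531, 270, 42, 65 or 154), with a median log2 fold change of 2.60. Top2a, a topoisomerase of dividing cells, was at 5.96, 8.20 and 6.51 CPM in STAT3-CKO SCI animals, against 0.411, 0.866, 0.722 and 0.136 CPM in WT uninjured animals (log2 fold change 3.70 ± 0.566, adjusted p = 0.000185). Sums of microglia and macrophage markers (1498 to 2227 CPM in STAT3-CKO SCI, 34.97 to 79.2 CPM in WT uninjured HA IP) and of oligodendrocyte precursor markers (506 to 801 CPM and 205 to 343 CPM in the same groups) moved with the cell cycle list, and their part was not tested. Mki67 was at 0.911, 1.34 and 5.59 CPM in STAT3-CKO SCI animals, against 0.299, 0.261, 0.447 and 0.167 CPM in WT uninjured animals (log2 fold change 3.18 ± 0.768, adjusted p = 0.0105), with animal 270 the highest, and Ccna2 averaged 2.35 ± 1.31 CPM in STAT3-CKO SCI and 0.283 ± 0.138 CPM in WT uninjured animals (log2 fold change 3.07 ± 0.706, adjusted p = 0.00754). Of 12 immediate early genes, 6 rose (3 to 7 with 1 animal left out, off by over 1.5 times without animal 531 or 154). Atf3, a stress-induced factor of injured cells, was at 2.03, 3.92 and 5.07 CPM in STAT3-CKO SCI animals, against 0.0917, 0.198, 0.202 and 0.0663 CPM in WT uninjured animals (log2 fold change 4.73 ± 0.701, adjusted p = 0.000131). Egr1 averaged 15.6 ± 2.62 CPM in STAT3-CKO SCI and 2.99 ± 0.723 CPM in WT uninjured animals (log2 fold change 2.38 ± 0.461, adjusted p = 0.00178). Jund, an AP-1 subunit, averaged 20.5 ± 15.3 CPM in STAT3-CKO SCI and 3.97 ± 1.03 CPM in WT uninjured animals (log2 fold change 2.36 ± 0.417, adjusted p = 0.000775), whereas Fos, at 1.38, and Nr4a1, at 1.88, did not pass the test. In fits with 1 animal fewer, the call ended for Mki67 and Ccna2 without animal 270 (adjusted p 0.0530 to 0.137).

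Markers of other cells are given as measured. Of 19 microglia and macrophage markers, 18 rose (median log2 fold change 4.52), and P2ry12, a purinergic receptor of resting microglia, did not pass the test (-0.40). Cx3cr1, the fractalkine receptor, was at 18.7, 23.2 and 17.9 CPM in STAT3-CKO SCI animals, against 0.713, 2.10, 2.62 and 1.39 CPM in WT uninjured animals (log2 fold change 3.55 ± 0.438, adjusted p = 1.75e-05). Laptm5 averaged 86.1 ± 16.9 CPM in STAT3-CKO SCI and 3.06 ± 1.39 CPM in WT uninjured animals (log2 fold change 4.82 ± 0.357, adjusted p = 8.38e-08). Of 10 oligodendrocyte precursor markers, 6 rose. Pdgfra, the growth factor receptor of these cells, was at 40.1, 50.8 and 39.2 CPM in STAT3-CKO SCI animals, against 10.99, 13.2, 12.4 and 12.4 CPM in WT uninjured animals (log2 fold change 1.83 ± 0.255, adjusted p = 7.22e-05). Gpr17, a receptor of cells about to differentiate, averaged 98.3 ± 42.3 CPM in STAT3-CKO SCI and 12.4 ± 1.69 CPM in WT uninjured animals (log2 fold change 2.99 ± 0.302, adjusted p = 2.00e-06). Of 13 myelin genes, 6 rose. Mbp, myelin basic protein, was at 2145, 2509 and 2388 CPM in STAT3-CKO SCI, 5785, 5353, 6884 and 3974 CPM in WT SCI and 667, 985, 726 and 778 CPM in WT uninjured animals, and was higher than in WT uninjured (log2 fold change 1.57 ± 0.264, adjusted p = 0.000461) and lower than in WT SCI animals (log2 fold change -1.23 ± 0.274, adjusted p = 0.0328). Mag and Cldn11, of the inner myelin loop and the tight junctions between loops, rose by 1.84 and 2.03. Sums of the precursor markers were 506 to 801 CPM in STAT3-CKO SCI, against 205 to 343 CPM in WT uninjured HA IP. Of 7 Schwann cell markers, 3 rose. Egr2, which drives Schwann cell myelination, rose (log2 fold change 5.28 ± 0.946, adjusted p = 0.000863), as did Ncmap (3.77). Of 15 neuronal markers, 1 fell (1 to 2 with 1 animal left out, off by over 1.5 times without animal 9935, 9874 or 9596; 5 in the fit of the 7 libraries). Snap25, a synaptic vesicle fusion protein, was at 85.8, 44.7 and 115 CPM in STAT3-CKO SCI animals, against 397, 261, 222 and 437 CPM in WT uninjured animals (log2 fold change -2.01 ± 0.376, adjusted p = 0.00132). Neuron markers summed to 184 to 426 CPM in STAT3-CKO SCI, against 490.4 to 875 CPM in WT uninjured HA IP. Of 4 tested endothelial markers, 0 were called by edgeR in the fit of 11 libraries, with 2 at an unadjusted p under 0.05, 1 by DESeq2 and 1 by limma-voom. By edgeR the count was 1 without the filter on low counts or without ribosomal-read genes, 2 in the fit of the 7 libraries and 0 to 2 with 1 animal left out, off by over 1.5 times without animal 186, 42 or 9874. Vwf had the smallest p (log2 fold change 2.90 ± 0.995, adjusted p = 0.0735), and Cldn5, at 0.146 CPM in STAT3-CKO SCI and 0.0123 CPM in WT uninjured HA IP on the 22-library scale, was filtered out. Of 10 ependymal markers, 0 were called by edgeR, with 1 at an unadjusted p under 0.05, 0 by DESeq2, 2 by limma-voom and 1 by edgeR on the 7 libraries, and their log2 fold changes lay between -1.42 and 0.89, the second that of Foxj1, with 8 of 10 below 0 and a median of -0.53. None of the 7 blood markers passed the filter, and 6 of them were at 0 counts in STAT3-CKO SCI HA IP. Omitting a single animal ended the call for Ncmap without animal 186, 42, 79 or 65 (adjusted p 0.0625 to 0.249). For the difference from WT SCI, the call ended for Mbp without animal 186, 531, 270, 79, 65 or 154 (adjusted p 0.0542 to 0.103).

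The flow-through of the same animals shows which of these differences HA IP shares with the unbound RNA. The change of STAT3-CKO SCI over WT uninjured was higher in HA IP for 36 of 15142 genes (0.238%) and lower for 94 (0.621%), by edgeR's test of the difference on all 22 libraries. HA IP and flow-through of an animal share its number, and with the animal as a replicate block 301 genes were higher and 403 lower, 704 in all. With RLE scaling the split was 22 higher and 117 lower, and without ribosomal-read genes 25 higher and 115 lower. Without 1 animal, the unblocked test called 32 genes without animal 186, 41 without 270, 19 without 531, 50 without 154, 59 without 42, 49 without 65 and 62 without 79. Levels and changes in this paragraph are on the scale of the 22-library fit unless another fit is named. C3 fell in HA IP and rose in flow-through (adjusted p = 1.61e-05 there). Its log2 fold changes were -2.72 in HA IP and 2.63 in flow-through (difference -5.35 ± 0.593, adjusted p = 1.88e-06), and in flow-through it was at 7.21, 13.5 and 15.3 CPM in STAT3-CKO SCI, against 1.33, 2.94, 1.74 and 1.95 CPM in WT uninjured flow-through. Vim was at 102, 99.5 and 85.5 CPM in STAT3-CKO SCI, against 0.538, 2.68, 3.92 and 2.19 CPM in WT uninjured flow-through, and its log2 fold changes were 2.18 in HA IP and 5.40 in flow-through (difference -3.21 ± 0.545, adjusted p = 0.00151). No injured animal overlapped an uninjured one in flow-through for either gene. Gfap had log2 fold changes of -0.52 in HA IP and 1.07 in flow-through (difference -1.60 ± 0.402, adjusted p = 0.0467), Aqp4 of 0.12 in HA IP and 1.99 in flow-through (difference -1.88 ± 0.385, adjusted p = 0.00965) and Gja1 of -1.07 in HA IP and 1.17 in flow-through (difference -2.24 ± 0.476, adjusted p = 0.0136). For all 3 genes the flow-through values of the injured animals were higher on average than those of uninjured ones. The reverse held for Mbp, with 1.57 in HA IP and -0.092 in flow-through (difference 1.66 ± 0.339, adjusted p = 0.00931). Over the 13 myelin genes, 5 changed more upwards in HA IP, and over the 12 astrocyte markers, 5 changed more downwards. The median log2 fold change over all 12 was 1.07 in flow-through, and -0.50 in HA IP in the fit of 11 libraries. Of the 19 microglia and macrophage markers, 1 changed less upwards in HA IP and the other 18 did not pass the test. The one was Gpnmb, with 6.78 in HA IP and 10.07 in flow-through (difference -3.29 ± 0.694, adjusted p = 0.0122). Lyz2 was at 8.29 in HA IP and 8.40 in flow-through (difference -0.11 ± 0.602, adjusted p = 1.00) and C1qa at 6.52 in HA IP and 6.19 in flow-through (difference 0.34 ± 0.546, adjusted p = 0.995). With the block, the difference passed the test for Osmr as well (log2 difference -4.56, adjusted p = 0.00557, against 0.163 without it), for Slc1a2 (-1.24, 0.00171 against 0.369) and for Vcan (1.46, 0.0319 against 0.333). Of 139 named genes, 19 passed without the block and 36 with it, with 0 lost. Beyond those 3, the 14 gained were Abca1, Atf3, Bgn, Bmp4, Bst2, Cd74, Cxcl16, Egr1, Fabp7, Gjb6, Gstm1, H2-Aa, Itih3 and Ust. For Cd74 the adjusted p was 7.75e-05 with the block and 0.143 without it. With 1 animal left out, the difference was lost for Gfap with any 1 of the 7 animals of the comparison left out (adjusted p 0.0794 to 0.339) and for Aqp4 and Gja1 without animal 186, 531, 65 or 154 (adjusted p 0.0568 to 0.225). Further calls lost were those for Mbp without animal 531 or 65 (adjusted p 0.0622 to 0.0723) and for Gpnmb without animal 186, 531, 270, 42 or 79 (adjusted p 0.0667 to 0.0942).

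**Figure D5:**
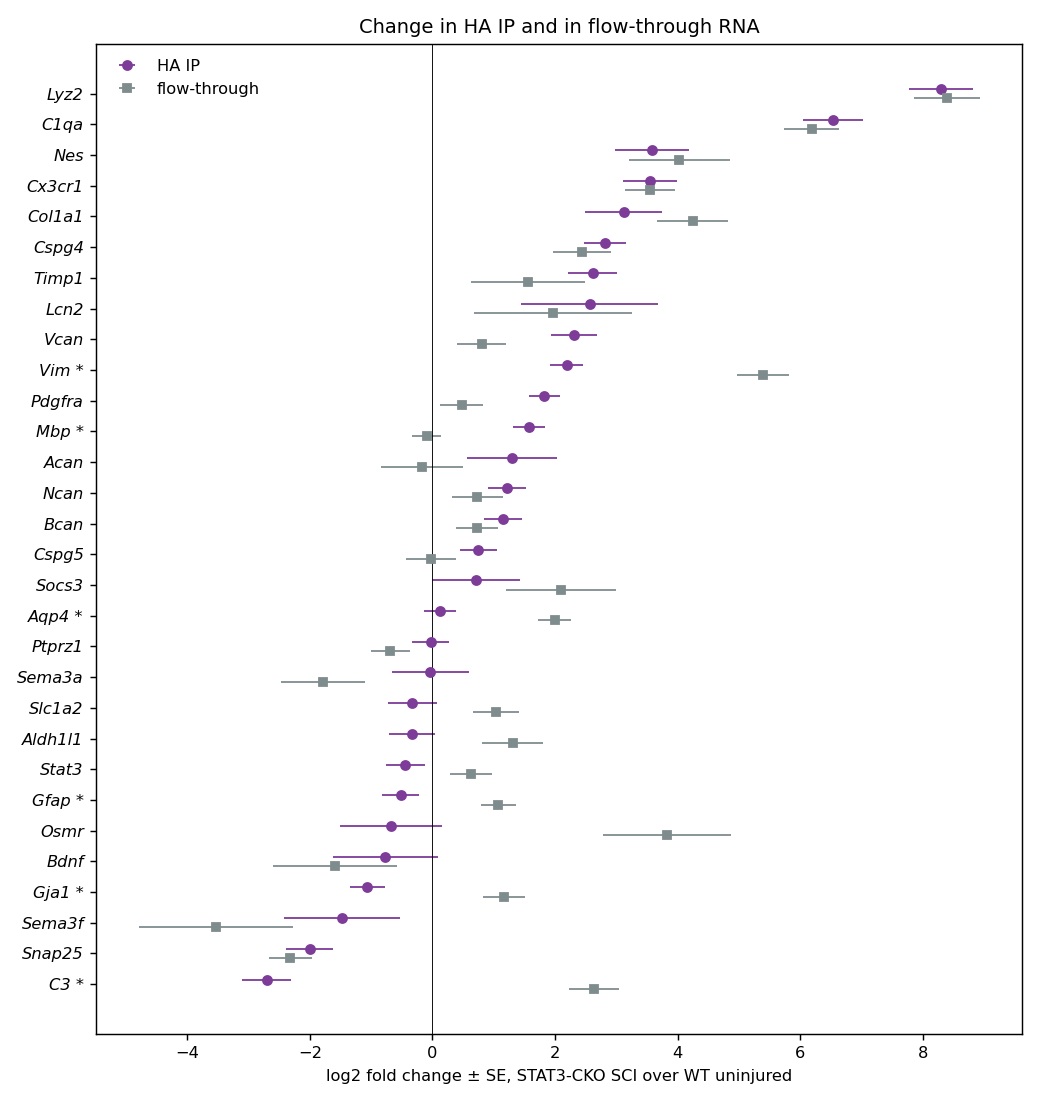
Log2 fold change of STAT3-CKO SCI over WT uninjured, with its standard error, in HA IP (circles, fit of 11 libraries) and flow-through (squares, fit of 22 libraries) for 30 genes listed singly. Stars mark genes whose change differed between the fractions at an adjusted p under 0.05 in the fit without the animal as block. Osmr, Slc1a2 and Vcan, which passed only with the block, have no star. C3 lies at -2.71 in HA IP and 2.63 in flow-through, and Lyz2 at 8.30 and 8.40.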

How the data were processed

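RNA was sequenced from HA immunoprecipitates and flow-through of mouse spinal cord RiboTag samples, with cDNA made from 5 ng RNA by NuGEN Ovation V2 and 10 PCR cycles, per the labels' protocols. The authors deposited raw counts per gene and a table of log2 fold changes with p-values and false discovery rates. CASAVA 1.8.2, edgeR and mm10 are named in the submitters' processing notes. The aligner, the counting tool, its annotation and its use of strand were not given in the sources used here, so reads of close paralogs, overlapping and antisense genes may be shared. A further 145 columns headed by animal numbers in the deposited tables were not used, and 25 of 27 symbols turned into dates were restored.

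Groups came from the labels, with the animal number as replicate. The 11 HA IP libraries were fitted by group in edgeR 4.0.16 (R 4.3.3; filterByExpr, TMM, quasi-likelihood test, two-sided, Benjamini-Hochberg over all genes tested, called at an adjusted p under 0.05). CPM were computed here from counts over TMM-adjusted library sizes, and means are given ± SD and log2 fold changes ± standard error. The difference between fractions was fitted on 22 libraries. HA IP and flow-through libraries with the same number come from the same animal, and their deviations from group means correlated at 0.319 to 0.679 over genes, so a fit with the animal as block was run as well. No 2 libraries agreed within sampling noise. The script was tested on simulated counts. Alternatives were RLE scaling, no filter, DESeq2 1.42.0, removal of Rn45s, Lars2 and Mir6236, limma 3.58.1 voom with sample weights, the 7 libraries alone, thinning to 2496641 counts and leaving out each animal.

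The members and lists were chosen with earlier results of these data known. Genes were named by rule: up to 10 per direction with the largest fold change among called, non-overlapping genes with a mean log2 CPM of at least 3, up to 3 called members per direction of each list by p, and 31 genes set singly. Other list members were named after their values were seen. Gene coordinates are from GENCODE vM21 and promoter sequences from RefSeq, both on GRCm38.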

Additional observations from a re-analysis of the deposited data

Results flagged for a closer look

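In groups of 4 animals, 12 of 170 sets of HA IP values held 1 animal whose gap to the nearest other exceeded Dixon's 95% critical share of the range, which chance does in about 1 of 20 for normally spread values. That rate does not hold at counts near 0. For Ccl4 and Bdnf the others were at 0, so any read in 1 animal was flagged. In WT uninjured animals, animal 79 stood apart for Ccl4 (0.00522 CPM, the others 0), Cxcl10 (1.7 CPM, the others 0.178 to 0.248) and Slc6a9 (126 CPM, the others 120 to 121). Animal 65 stood apart for Cst7 (0.0735 CPM, the others 0 to 0.0118) and Lpl (2.72 CPM, the others 1.91 to 2.04). Animal 154 did so for Hspg2 (0.617 CPM, the others 0.777 to 0.79) and Lcn2 (0.0628 CPM, the others 0 to 0.00888). In WT SCI animals, 9874 was high for Cx3cr1 (25.1 CPM, the others 10.8 to 13) and Ptprz1 (54.4 CPM, the others 28 to 30.9), and 9843 for Bdnf (0.174 CPM, the others 0). Animal 9596 was low for Pdgfra (31.4 CPM, the others 42.4 to 42.9) and 9935 for Vim (91.9 CPM, the others 161 to 173).

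In the fit without the animal as block, the change of STAT3-CKO SCI over WT uninjured differed between HA IP and flow-through for 6 of the 31 genes followed singly. With the block, which takes up the pairing of fractions by animal, Osmr, Slc1a2 and Vcan passed as well. The log2 change in HA IP minus that in flow-through was -1.60 for Gfap, -3.21 for Vim, -1.88 for Aqp4, -2.24 for Gja1 and -5.35 for C3, and 1.66 for Mbp. The call was lost without any 1 of the 7 animals for Gfap, without animal 186, 531, 65 or 154 for Aqp4 and Gja1, and without animal 531 or 65 for Mbp.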

How the results depend on the processing

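The 1444 genes called between STAT3-CKO SCI and WT uninjured HA IP numbered 2254 with DESeq2 (1499 higher, 755 lower), 2874 with limma-voom and sample weights (1736 and 1138), 3585 with the 7 libraries alone in the fit (2178 and 1407) and 3066 with these thinned to equal depth (1953 and 1113). With 1 animal left out of the 11 they numbered 848 to 1905. RLE scaling, no filter on low counts and removal of ribosomal-read genes kept the count between 1381 and 1761. For STAT3-CKO SCI against WT SCI, 171 genes became 917 with DESeq2, 69 with limma-voom and 39 to 343 with 1 animal left out. For the difference between HA IP and flow-through, 130 became 393 with DESeq2, 478 with limma-voom, 704 with the animal as replicate block and 19 to 190 with 1 animal left out. Of the 120 named genes called in the first comparison, 120 kept the call with RLE scaling, DESeq2, ribosomal-read genes removed and the 7 libraries alone. The call was kept by 119 with limma-voom (not Gpx3, adjusted p = 0.059) and without the filter (not Acsl5, adjusted p = 0.0533), and by 101 to 120 with 1 animal left out. With thinning, 117 kept it, and the rest were not tested there, so that no tested gene lost its call. The cause of these moves was not tested.

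No named gene turned round under these settings in a comparison in which it was called. Signs did turn for values near 0 or on few counts that were not called. Against WT uninjured, leaving out 1 animal gave log2 fold changes of -0.24 to 0.33 for Aqp4, -4.14 to 4.48 for Lcn2, -0.49 to 0.15 for Ptprz1, -0.61 to 0.28 for Slc1a2 and -0.98 to 0.35 for Sema3a. Slc1a2 was at 0.013 in limma-voom, and Sema3a at 0.0043 in the 7 libraries and 0.34 with thinning. Against WT SCI, the same step gave -0.60 to 0.17 for Nes, -0.47 to 0.099 for C1qa, -0.00059 to 0.19 for Pdgfra, -1.16 to 0.20 for Col1a1 and -0.92 to 0.41 for Sema3a. Sema3a was at -0.047 with RLE scaling and -0.034 with DESeq2, and Sema3f at -0.094 in limma-voom. For HA IP minus flow-through it gave -5.94 to 1.51 for Timp1, -3.08 to 2.23 for Lcn2, -0.21 to 0.046 for Lyz2, -0.25 to 0.31 for Cx3cr1 and -0.28 to 1.54 for Bdnf. Limma-voom gave -3.34, -0.044 and 0.27 for Timp1, Lcn2 and Cx3cr1, and the replicate block -0.078 for Timp1 and 0.053 for Cx3cr1. Among the 31 genes followed singly, the block changed no call other than those given for Osmr, Slc1a2 and Vcan. The shallowest STAT3-CKO SCI library held 2496641 counts outside ribosomal reads, so low genes rest on few counts there.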

Other observations

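Families defined by gene symbol, and chosen after values had been seen, add to the account of STAT3-CKO SCI over WT uninjured HA IP, in which 7.7% of all genes were called higher and 2.08% lower. Of 82 tested subunits of the mitochondrial respiratory chain, 15 fell (8 to 18 with 1 animal left out, off by over 1.5 times without animal 186, 79 or 65), with a median log2 fold change of -0.476 against 0.00222 over all genes. The 1 that rose was Cox6a2, best known as a muscle isoform, and its call was lost without animal 270, 42, 79 or 154. Of 9 Toll-like receptors, which sense microbial and damaged-cell molecules, 7 rose (median 2.73; 3 to 7 with 1 animal left out, off by over 1.5 times without animal 270, 42, 79, 65 or 154). The calls lost there were among Tlr1, Tlr2, Tlr4 and Tlr6. Of 12 cathepsins, the proteases of lysosomes, 7 rose (median 2.18; 7 to 8 with 1 animal left out). Of 27 integrin chains, 8 rose (6 to 10 with 1 animal left out), among them Itgam, Itgax and Itgal of leukocytes and Itga5, Itgb1 and Itgb5, which bind matrix.

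Among 38 proteasome subunits, 3 (7.89%) rose and 2 fell. Those that rose were Psmb8, Psmb9 and Psmb10, the catalytic subunits of the immunoproteasome, and those that fell were Psma3 and Psmb7, the second a constitutive catalytic subunit. Psmb10 lost its call without animal 186, 531, 42, 79, 65 or 154, Psmb7 without 186, 531, 270, 79, 65 or 154, and Psma3 without 186, so that no subunit was called lower without animal 186. Of 23 matrix metalloproteinases and Adamts proteases, Mmp2, Mmp12, Mmp15 and Adamts4 rose (2 to 7 with 1 animal left out, off by over 1.5 times without animal 186, 42, 65, 154 or 9874). Mmp2 lost its call with any 1 of the 7 animals of the comparison left out, and Mmp15 without 186, 42, 65 or 154. Of 28 semaphorins and plexins, 8 rose (6 to 8 with 1 animal left out), including the plexins Plxna1, Plxnb2, Plxnb3, Plxnc1 and Plxnd1. Among 81 cytoplasmic ribosomal proteins, 12 rose (3 to 14 with 1 animal left out, off by over 1.5 times without animal 186, 531, 42, 79, 65 or 154) and 2 fell (0 to 4 with 1 animal left out, off by over 1.5 times without animal 186, 531, 270, 42, 79, 65 or 154), with a median of 0.0896 and with values that are uncertain because processed pseudogenes can share their reads. The microglia and macrophage markers, which summed to 1498 to 2227 CPM in STAT3-CKO SCI and 34.97 to 79.2 CPM in WT uninjured HA IP on the scale of 22 libraries, moved with the rises in these families, and their part was not tested.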
